A study of Mus musculus with 93 samples.

Results

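The 8 genes described here encode the G protein subunits that olfactory sensory neurons are known for, together with an accessory protein. They are Gnas (G alpha s), Gnal (G alpha olf), Gnao1 (G alpha o), Gnai2 (G alpha i2), Gnb1 (a beta subunit), Gng8 and Gng13 (gamma subunits) and Ric8b, a chaperone and exchange factor for G alpha olf and G alpha s. They were taken by symbol from the 32747 gene symbols of the expression table, and each had a single entry there. The study sequenced RNA from single cells picked by hand out of dissociated olfactory epithelium of C57BL/6 mice, with no other genotype, treatment or age in the labels. The labels place each cell in one of 5 stages of the neuronal lineage: Progenitor with 11 cells, Precursor with 9, Early Immature Neuron with 27, Late Immature Neuron with 13 and Mature Neuron with 25. These 85 cells each have a first library, and 8 of them have a repeat library that was used only to measure technical error.

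In a mature olfactory sensory neuron an odorant receptor in the cilia activates a heterotrimer of G alpha olf with a beta and a gamma subunit. G alpha olf then activates the adenylyl cyclase Adcy3, and cAMP opens the channel formed by Cnga2, Cnga4 and Cngb1. G alpha s is the close relative of G alpha olf found in most cell types. Gng8 is known from immature olfactory neurons and from vomeronasal neurons, which also use G alpha o and G alpha i2. Omp and Gap43 are the usual landmarks of mature and immature olfactory neurons.

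No label names an animal, so cells of a stage are not replicates of it and each stage counts as 1 sample. No test was therefore made between stages, and every SD is the spread over the cells of a stage. Levels are in FPKM, fragments scaled by transcript length and by the mapped fragments of the library. The cDNA was primed with oligo(dT), and how evenly reads cover long and short transcripts was not tested. Comparisons of different genes, including shares, sums and the entry of highest FPKM, are therefore of listed FPKM values only. A difference between stages is the difference of mean log2(FPKM + 1), and it counts as past the rule of size when it reaches 1. Where stages are said to lie apart or not to overlap, the share of all genes that do so is not given. Such statements describe levels only and do not mark a gene as unusual. The labels do not say how cells were assigned to stages, so that any member used for the assignment would differ between stages by construction.

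One unit of FPKM in a transcript of 1 kb corresponded to 0.556 to 9.73 fragments per cell, with a median of 5.53, so that 3 fragments gave a Gng8 level of 0.335 to 5.87 FPKM. The median mitochondrial share of a cell's summed FPKM was 44.4% at the Progenitor and 67.0% at the Mature Neuron stage. Mki67, a gene of dividing cells, was at 1 FPKM or more in 10 of 11 Progenitor cells, in 4 of 9 Precursor cells and in no neuron, and Omp was at 100 or more in all Late Immature and Mature Neuron cells. Genes of other cell types were present. S100a8 or S100a9, which are neutrophil genes, reached 100 FPKM in 8 of 11 Progenitor cells and in Precursor cell D179. The summed level of 8 blood and immune markers ranged from 0 to 638 FPKM in Progenitor cells with a median of 353, while the other 4 stages had medians of 0 to 0.161. Of these 8 markers, 3 were at 0 in every Progenitor cell. The 8 sustentacular markers summed to medians of 162, 1.86, 3.44, 22.2 and 318.2 FPKM from Progenitor to Mature Neuron, and single cells ranged from 0 to 4421 FPKM. The 4 glia markers summed to 0 to 5793 FPKM in Progenitor cells with a median of 13.2, against medians of 0.0603 to 0.369 in the other stages, and 2 of them were at 0 in every Progenitor cell. Krt5 and Krt14, keratins of horizontal basal cells, were at 0 in every Progenitor, Late Immature and Mature cell. The 3 Progenitor cells without S100a8 or S100a9 (D330, D337 and D393) are also the only Progenitor cells numbered D316 to D434, a range of cell numbers that holds all 5 stages. The part of these genes and of cell numbering in the results was not tested, and values without those cells are given where they differ.

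**Figure D1:**
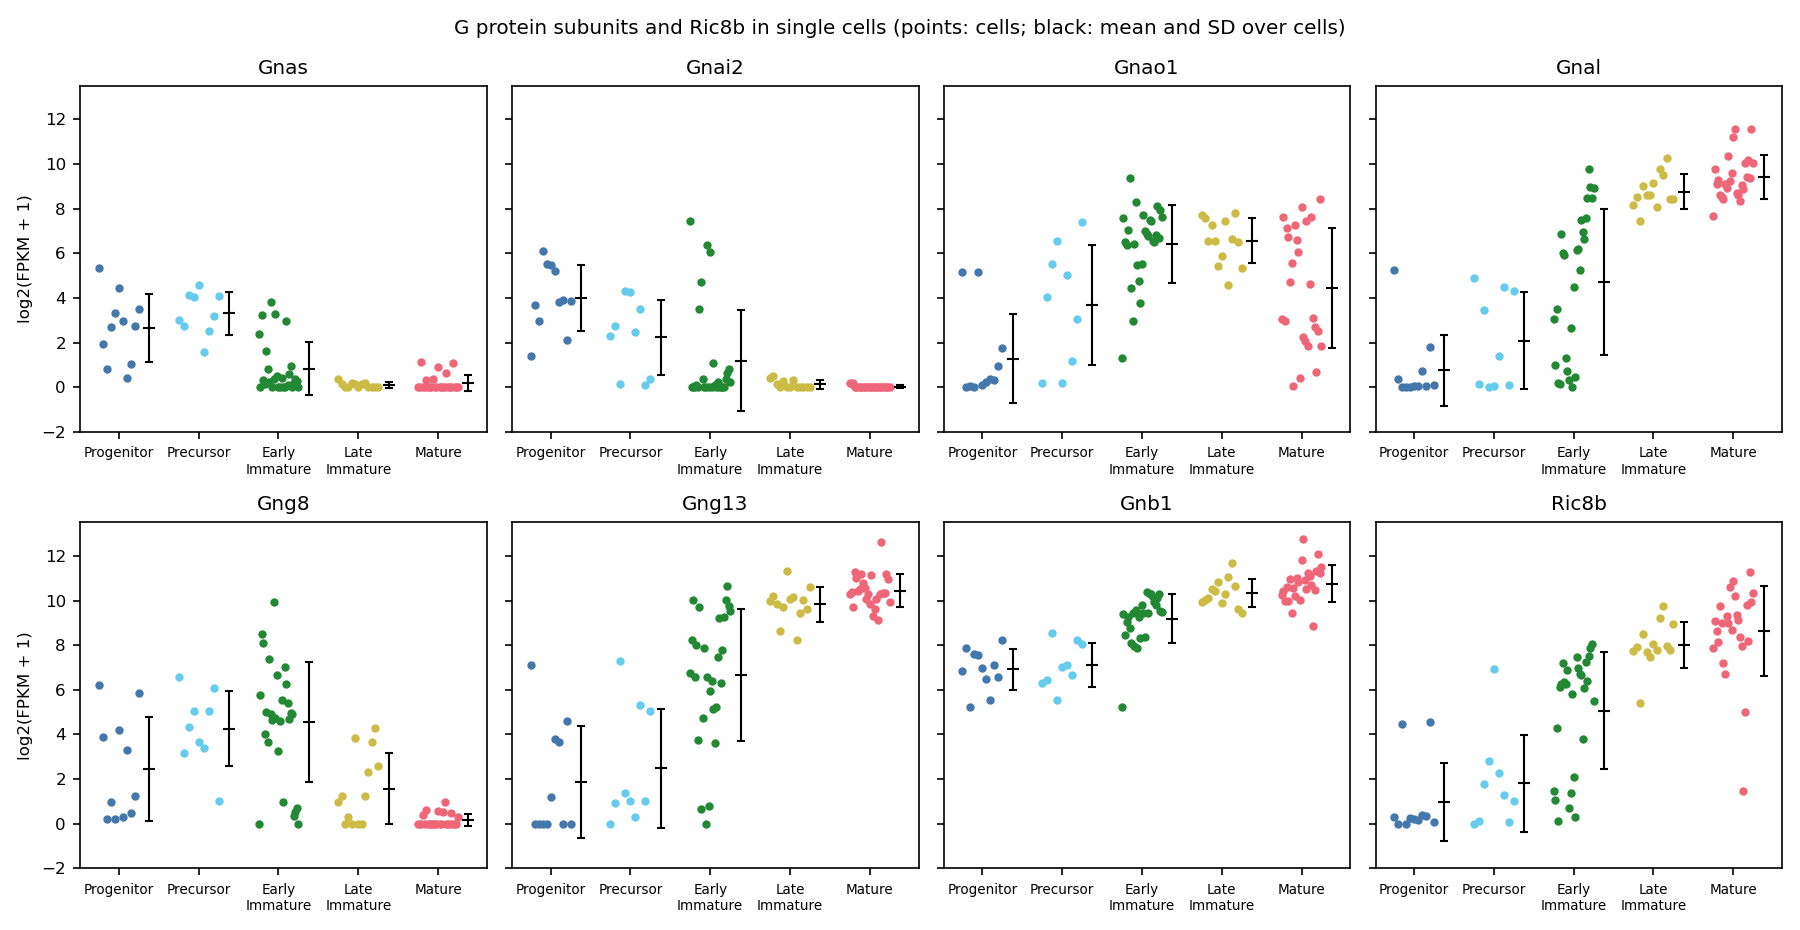
Level of each gene in every cell, as log2(FPKM + 1), by stage; points are cells and the black marks give the mean and SD over the cells of a stage. Gnas and Gnai2 are near 0 in Late Immature and Mature Neuron cells, where Gnal, Gng13, Gnb1 and Ric8b are at their highest levels, and Gng8 and Gnao1 peak in between.

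Gnas, at chromosome 2 from 174284320 to 174346744 on the plus strand of mm10 (ENSMUSG00000027523.13), was listed at low levels in the first stages. Its FPKM ranged from 0.342 to 39.9 in Progenitor cells with a median of 5.68, and from 1.97 to 23.0 in Precursor cells with a median of 8.04. In Early Immature Neurons the range was 0 to 13.0 with a median of 0.241, and the highest values in Late Immature and Mature Neurons were 0.305 and 1.18. Late Immature cells thus all lay below every Progenitor and Precursor cell. The mean log2 level fell past the rule of size from Precursor to Early Immature Neuron, by 2.48. Of the 4006 genes compared in this step 28% were lower past the rule, and 5.34% had a difference as low as that of Gnas or lower. Gnas reached 1 FPKM in 22.2% of Early Immature Neurons, so that it entered only through Precursor cells, where it is higher. Its rank among all genes therefore only describes it.

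The entry for Gnas holds only a small part of the reads from that locus. Gm20721 is a gene model on the minus strand (chromosome 2, 174330319 to 174346712), and 99.0% of its 1484 exonic bases lie on exons of Gnas. The library kit does not mark the strand of a transcript, so reads in the shared 1469 bases cannot be told apart by gene. Gm20721 was listed at medians of 400.9, 553, 15.4, 0.326 and 0.482 FPKM from Progenitor to Mature Neuron, and it took a median of 99.0% of the sum of both entries in Progenitor and 98.1% in Precursor cells. Levels of both entries went together over the 85 cells (Pearson r = 0.86 on the log2 scale, over cells that differ in stage). They are therefore also given as a sum.

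The sum of Gnas and Gm20721 was the highest alpha subunit entry in every Progenitor and Precursor cell. It ranged from 147 to 2070 FPKM in Progenitor cells with a median of 406.3, and from 104 to 988 in Precursor cells with a median of 561. Early Immature Neurons spread from 0.497 to 709 FPKM around a median of 15.7. Late Immature Neurons held 0 to 6.90 FPKM with a median of 0.394, and Mature Neurons 0 to 225 with a median of 0.482. Mature Neuron D342 held the 225 FPKM, and the groups of the first and last stage overlap only through that cell. The difference of means was -0.10 from Progenitor to Precursor, -4.33 from Precursor to Early Immature Neuron, -3.34 from Early to Late Immature Neuron and 0.37 from Late Immature to Mature Neuron.

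Gnal (ENSMUSG00000024524.10) had the opposite course. Its FPKM ranged from 0 to 36.9 in Progenitor cells with a median of 0.0381, and from 0 to 28.6 in Precursor cells with a median of 1.61. Early Immature Neurons spread from 0 to 870 around a median of 59.8. All 13 Late Immature Neurons lay between 172.3 and 1243 with a median of 389, and all 25 Mature Neurons between 204.6 and 3032 with a median of 604. Late Immature and Mature cells did not overlap with the first 2 stages, whereas Early Immature cells overlapped with all other stages. The mean log2 level was higher by 1.33 from Progenitor to Precursor, where 20.1% of 4321 genes rose past the rule, but by 0.98 without Precursor cell D383 and by 0.44 within cells D316 to D434. It was higher by 2.64 from Precursor to Early Immature Neuron, a step that 22% of genes passed, and by 4.04 from Early to Late Immature Neuron, a step that 32.5% of 4144 genes passed. The last of these was larger than the SD of 2.37 over cells. From Late Immature to Mature Neuron the difference was 0.66, less than the SD of 0.89.

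The last exon of Gnal shares 365 bases with Mppe1, a phosphoesterase gene on the other strand, and these bases make up 6.34% of the exonic length of Gnal. Mppe1 had the highest correlation with Gnal over the 85 cells (r = 0.93), and their reads in the shared part cannot be told apart.

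The share of Gnal in the sum of Gnas and Gnal within a cell does not depend on how libraries were scaled. It was taken only in cells where the sum reached 10 FPKM. With the Gnas entry alone, 3 Progenitor cells passed this minimum, with a median share of 0.542%. The 6 Precursor cells that passed had a median of 46.2% and ranged from 0 to 82.2%. Medians were 99.6% in 20 Early Immature Neurons and 100% in all Late Immature and Mature cells.

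With Gm20721 counted as Gnas the shares of the first 2 stages were all low. All 11 Progenitor and 9 Precursor cells then entered, with medians of 0.0126% and 1.53%, and the highest Precursor share was 11.1%. The 23 Early Immature Neurons had a median of 67.1%, with 7 cells under 10%, 13 over 50% and 9 over 90%. Late Immature and Mature Neurons had medians of 99.9%, and the lowest cell was D342 at 71.3%. The stage at which shares spread from low to high thus depends on whether the overlapping gene model is counted. The SD over cells with it was 3.67 percentage points in Precursor and 42.0 in Early Immature cells, and with the Gnas entry alone it was 36.7 and 25.5.

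**Figure D2:**
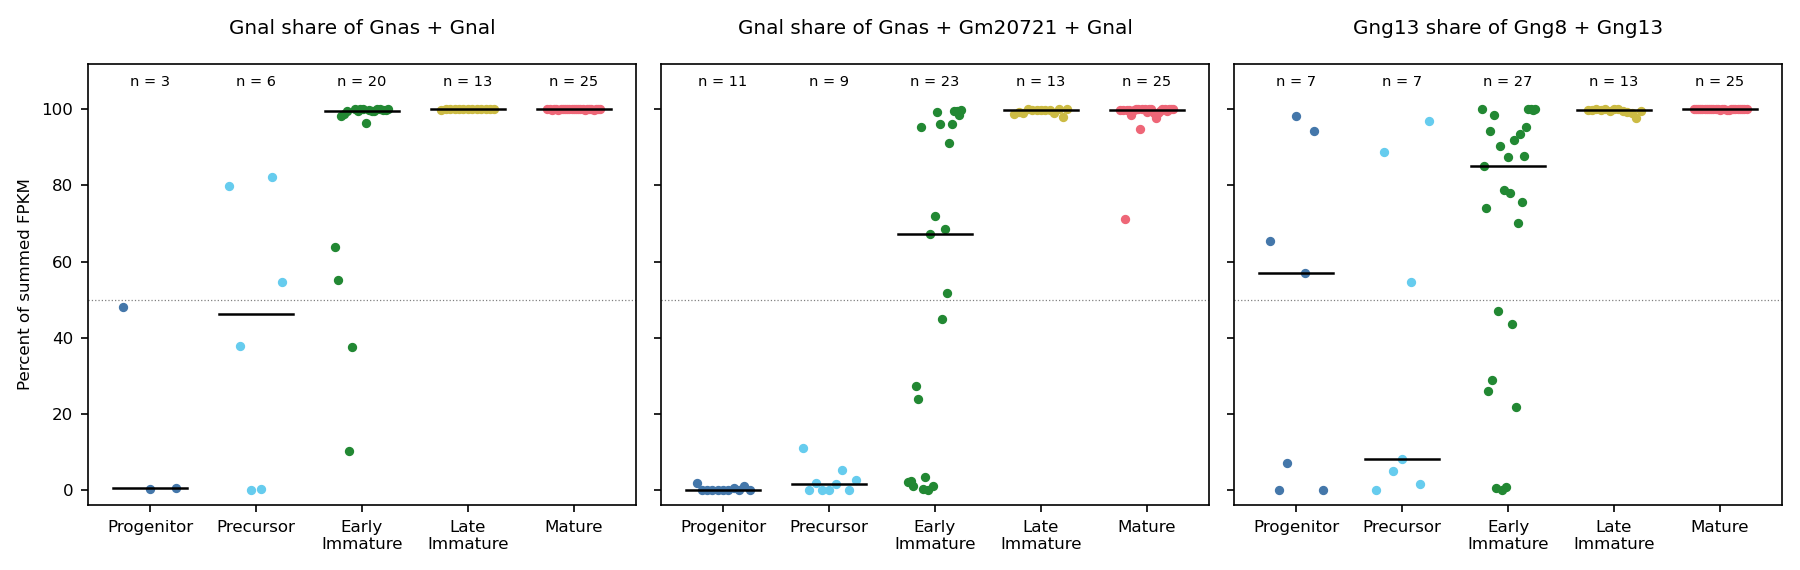
Share of summed FPKM in each cell by stage, for Gnal with Gnas (left), Gnal with Gnas plus Gm20721 (middle) and Gng13 with Gng8 (right); points are cells with a sum of at least 10 FPKM, n is their number and black lines are medians. Early Immature Neurons spread from 0 to 99.9% in the middle panel and from 0 to 100% in the right panel, and Late Immature and Mature Neurons lie near 100% apart from D342 in the middle panel.

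Gnao1, at chromosome 8 from 93810838 to 93969388 (plus strand, ENSMUSG00000031748.9), was highest in the immature stages. Its FPKM ranged from 0 to 35.4 in Progenitor cells with a median of 0.236, and from 0.148 to 170 in Precursor cells with a median of 15.6. Early Immature Neurons held 1.44 to 660 with a median of 107, and Late Immature Neurons 23.2 to 221 with a median of 92.7. Mature Neurons spread from 0.054 to 345.4 around a median of 23.5, with 13 of 25 cells at 10 or more and 8 at 100 or more. Every Late Immature cell was thus above 10 FPKM, while Mature cells ranged from near 0 to levels above all Late Immature cells. The mean log2 level rose past the rule by 2.40 and 2.73 in the first steps, moved by 0.14 from Early to Late Immature Neuron, and fell by 2.10 from Late Immature to Mature Neuron. In that last step 32.7% of 3835 genes were lower past the rule. Trpc2, a channel known from vomeronasal neurons, had stage medians of 0 to 1.195 FPKM and reached 1 FPKM in 7 of 13 Late Immature and 7 of 25 Mature Neurons. Single cells held far more, and the highest cell of a stage lay between 21.9 FPKM (Late Immature) and 317.4 FPKM (Mature). Of 322 vomeronasal receptor genes, 306 were at 0 in every Mature Neuron. The sum of these 322 genes ranged from 0 to 46.6 FPKM in Mature Neurons with a median of 0.957. Whether cells with Trpc2 or these receptors account for the spread of Gnao1 was not tested.

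Gnai2, at chromosome 9 from 107614138 to 107635342 (minus strand, ENSMUSG00000032562.8), was highest in Progenitor cells. It ranged from 1.65 to 67.2 FPKM there with a median of 13.6, and from 0.0704 to 19.0 in Precursor cells with a median of 4.51. In Early Immature Neurons 13 of 27 cells were listed at 0, yet 5 cells held 10 or more, led by D357 at 173.7. No Late Immature cell exceeded 0.429 and no Mature cell 0.137. The Mature value is under the 0.142 to 2.48 FPKM that 3 fragments gave. The Late Immature value, in D199, is above the 0.211 FPKM that 3 fragments gave in that cell. The mean fell by 1.77 from Progenitor to Precursor, where 21.6% of genes were lower past the rule, and by 0.89 within cells D316 to D434. The step of -1.05 to Early Immature Neuron was within the SD of 1.99, and without any of D374, D319, D179 or D195 it was between -0.99 and -0.79. From Progenitor to Mature Neuron the difference was -3.99, and 46.3% of 4467 genes were lower past the rule.

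Among the 16 alpha subunit genes, the entry of highest FPKM differed between stages. With Gm20721 counted as Gnas, Gnas led in 11 of 11 Progenitor and 9 of 9 Precursor cells, and Gnal led in all 13 Late Immature and 25 Mature Neurons. The 27 Early Immature Neurons were split: Gnao1 led in 10, Gnal in 8, Gnas in 7, and Gna12 and Gnai2 in 1 each. In 4 of them (D424, D332, D373 and D331) both Gnas with Gm20721 and Gnal were under 10 FPKM, while Gnao1 was between 43.0 and 316.1. D373, for example, held 0.840 FPKM of Gnas with Gm20721, 0.634 of Gnal and 316.1 of Gnao1. No cell of another stage had both under 10 FPKM. With the Gnas entry alone, 9 Early Immature Neurons had both under 10, as did 8 Progenitor and 3 Precursor cells. With that entry alone, Gnas led in no cell of any stage. Precursor cells were then led by Gnai3 and Gnao1 in 3 each, Gnaq in 2 and Gna11 in 1. Among Early Immature Neurons Gnao1 then led in 12 and Gnal in 10. The lead of Gnas thus rests on counting Gm20721.

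**Figure D3:**
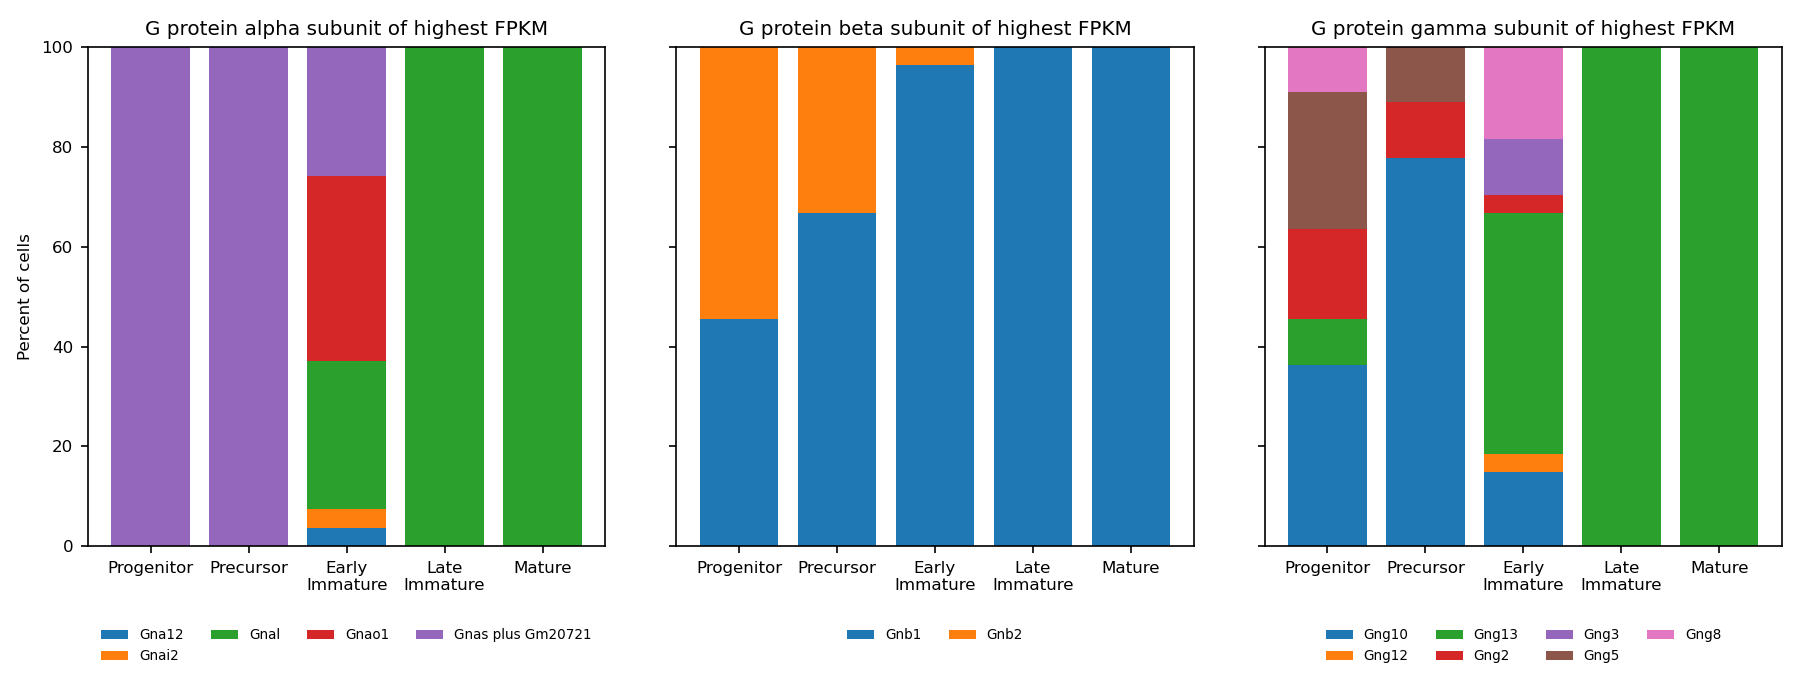
Percent of cells of each stage in which a given gene had the highest FPKM among the alpha, beta or gamma subunit genes, with Gm20721 added to Gnas. Gnas plus Gm20721 leads in all Progenitor and Precursor cells and Gnal in all Late Immature and Mature cells. Early Immature cells are divided, with Gnao1 leading in 10 of 27. With the Gnas entry alone, Gnas leads in no cell.

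Gng8 and Gng13 lie on different chromosomes and share no exon with each other. Gng8 is on chromosome 7 from 16891786 to 16895435 (plus strand, ENSMUSG00000063594.4) and Gng13 on chromosome 17 from 25717171 to 25719406 (plus strand, ENSMUSG00000025739.7). The 250 bases upstream of each RefSeq start in GRCm38.p6 are shown because this pair moved in opposite directions from Early to Late Immature Neuron. The Gng8 window is chr7:16891536-16891785 and that of Gng13 is chr17:25716922-25717171, both on the plus strand. Gng13 has another annotated start, and the window shown is that of the start farther upstream. Capitals mark the letters that match CCCNNGGG, the core recognised by EBF factors, whose levels are not given here.
Gng8: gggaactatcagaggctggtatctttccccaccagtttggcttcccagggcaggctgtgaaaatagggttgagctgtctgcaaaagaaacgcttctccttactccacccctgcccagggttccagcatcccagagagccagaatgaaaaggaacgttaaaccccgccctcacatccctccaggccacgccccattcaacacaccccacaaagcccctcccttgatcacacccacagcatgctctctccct
Gng13: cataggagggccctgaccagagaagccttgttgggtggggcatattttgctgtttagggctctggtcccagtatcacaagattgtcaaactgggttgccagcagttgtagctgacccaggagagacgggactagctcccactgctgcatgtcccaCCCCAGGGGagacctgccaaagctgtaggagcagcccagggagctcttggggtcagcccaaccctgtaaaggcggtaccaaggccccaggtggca

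The Gng13 window held 2 overlapping matches, at -95 to -88 and at -94 to -87 from the start, and the Gng8 window held none. The window of the other Gng13 start, not shown, held none either. Of 32851 promoter windows of this length, 3882 (11.8%) held CCCNNGGG. The homeodomain core TAATTA, in 4.84% of windows, matched neither of the pair. The motifs were searched on both strands. A match says only that these letters occur in the window.

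Gng8 was highest in the Precursor and Early Immature stages. Its FPKM ranged from 0.144 to 73.2 in Progenitor cells with a median of 1.39, from 1.03 to 93.8 in Precursor cells with a median of 19.4, and from 0 to 990 in Early Immature Neurons with a median of 29.2. Late Immature Neurons held 0 to 18.3 with a median of 1.38. In first libraries no Mature Neuron reached 1 FPKM, the highest being 0.969 in D245, and 18 of 25 were listed at 0. Mature Neuron D251, however, was at 0 in its first library and at 53.7 FPKM in its repeat library. The mean rose by 1.82 from Progenitor to Precursor, but by 0.86 without the cells with S100a8 or S100a9. It moved by 0.28 to Early Immature Neuron and fell by 2.96 to Late Immature Neuron, where 16% of genes were lower past the rule and 0.917% had a difference as low or lower. The further fall of 1.42 to Mature Neuron was larger than the SD of 1.14, but it was 0.59 within cells D316 to D434 and 0.95 with repeat libraries in place of the first.

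Gng13 was at high levels in every cell of the last stages. It was listed at 0 in 6 of 11 Progenitor cells, with a highest value of 138 FPKM in D172. Precursor cells ranged from 0 to 154 with a median of 1.03, and Early Immature Neurons from 0 to 1586 with a median of 108. Late Immature Neurons held 304 to 2538 with a median of 1024, and Mature Neurons 553 to 6268 with a median of 1296. Late Immature and Mature cells lay above every Progenitor and Precursor cell. The mean rose by 4.19 from Precursor to Early Immature Neuron and by 3.17 to Late Immature Neuron, both beyond the SD over cells (2.81 and 2.16), and the difference of 0.61 to Mature Neuron was within it. From Progenitor to Precursor it differed by 0.62, by 1.15 without D172, by -0.09 without the cells with S100a8 or S100a9 and by -2.03 within cells D316 to D434.

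Of the 773 exonic bases of Gng13, 397 (51.4%) are shared with Chtf18, a gene of the replication clamp loader on the other strand. Chtf18 was listed at medians of 0.191, 0.931, 2.66, 18.9 and 24.3 FPKM from Progenitor to Mature Neuron, and it correlated with Gng13 over the 85 cells (r = 0.85). Reads in the shared bases cannot be told apart, and their part in the levels and shares of Gng13 was not tested.

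Gng13 was the larger of the pair in most Early Immature Neurons and in all later cells. In cells where their sum reached 10 FPKM, the share of Gng13 had a median of 57.0% in 7 Progenitor cells and of 8.04% in 7 Precursor cells, with cells from 0 to over 90% in both. All 27 Early Immature Neurons passed the minimum, with a median of 84.98%, and 19 lay over 50%, 11 over 90% and 3 under 10%. The lowest cell of the later stages was at 97.7%. The Progenitor median rested on few cells and was 32.0% without any of D172, D174 or D393 and 36.2% without D330.

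Other gamma subunits led in the first stages. Of the 12 gamma genes, Gng10, a broadly expressed subunit, was highest in 7 of 9 Precursor and 4 of 11 Progenitor cells, and it ranged from 25.3 to 464 FPKM in Precursor cells with a median of 139. Among Early Immature Neurons Gng13 led in 13, Gng8 in 5, Gng10 in 4, Gng3 in 3, and Gng2 and Gng12 in 1 each. Gng13 led in all Late Immature and Mature Neurons.

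**Figure D4:**
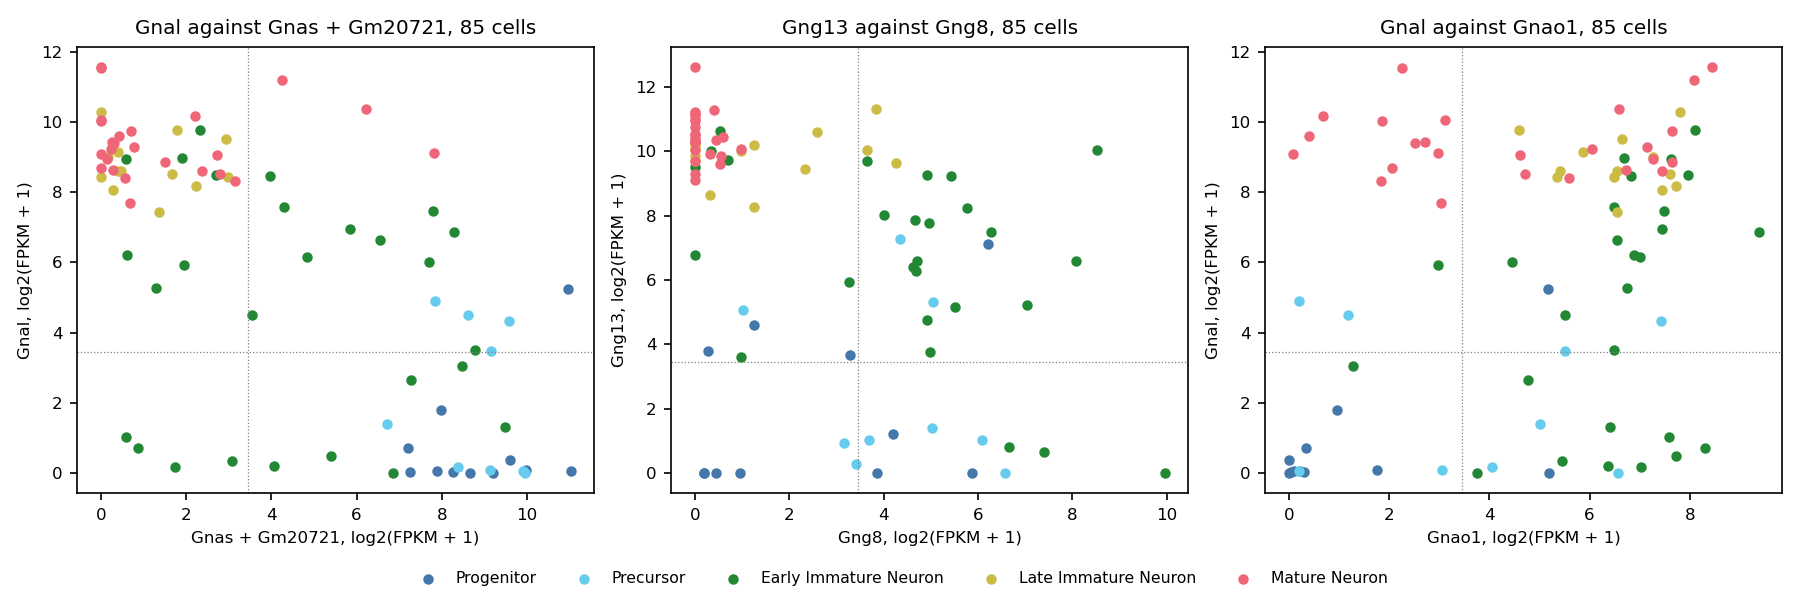
Levels in the same cell, as log2(FPKM + 1), for Gnal against Gnas plus Gm20721, Gng13 against Gng8 and Gnal against Gnao1 in 85 cells, coloured by stage; dotted lines mark 10 FPKM. In the left panel 10 of 11 Progenitor and 5 of 9 Precursor cells lie at the lower right. The remaining 1 Progenitor and 4 Precursor cells are above 10 FPKM on both axes. Late Immature and Mature cells lie mostly at the upper left, and Early Immature cells lie between and along both axes.

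Gnb1, at chromosome 4 from 155491361 to 155559269 (plus strand, ENSMUSG00000029064.9), was detected in every cell. Its FPKM ranged from 36.3 to 301 in Progenitor cells with a median of 125, and from 45.0 to 373.2 in Precursor cells with a median of 130. Early Immature Neurons held 36.2 to 1342 with a median of 691, Late Immature Neurons 688 to 3284 with a median of 1242, and Mature Neurons 460 to 6988 with a median of 1667. All Late Immature and Mature cells lay above every Progenitor and Precursor cell. The mean rose by 2.08 from Precursor to Early Immature Neuron and by 1.16 to Late Immature Neuron, both beyond the SD over cells, and the latter was 0.87 in cells without genes of other cell types. The sister subunit Gnb2 took the opposite course, with medians of 133, 73.7, 1.39, 0.131 and 0 FPKM by stage. Gnb2 led over Gnb1 in 6 of 11 Progenitor, 3 of 9 Precursor and 1 of 27 Early Immature cells, and Gnb1 led in all other cells.

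Ric8b, at chromosome 10 from 84917616 to 85016446 (plus strand, ENSMUSG00000035620.8), had a course over stages like that of Gnal. It ranged from 0 to 22.4 FPKM in Progenitor cells with a median of 0.200, and from 0 to 123 in Precursor cells with a median of 1.42. Early Immature Neurons held 0.104 to 263 with a median of 76.2, Late Immature Neurons 41.1 to 857 with a median of 238, and Mature Neurons 1.75 to 2526 with a median of 515. The 123 FPKM belonged to Precursor D179, the cell with S100a8 and S100a9. Apart from D179, the first 2 stages lay below all Late Immature cells and below all Mature cells except D213 at 1.75. The mean rose by 3.25 from Precursor to Early Immature Neuron and by 2.96 to Late Immature Neuron, both beyond the SD over cells (2.41 and 1.99). The difference of 0.83 from Progenitor to Precursor moved between 0.19 and 1.19 as single cells were left out. It turned to -0.51 without the cells with S100a8 or S100a9 and to -0.63 within cells D316 to D434. Ric8 in the deposited annotation is Ric8a, the chaperone of other alpha subunits, and its medians were between 0.0641 and 1.796 FPKM in all stages.

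Over the whole lineage, 5 of the 8 genes were higher in Mature Neuron than in Progenitor cells past the rule of size, and 3 were lower. The background was 25.2% of 4467 genes higher and 46.3% lower. Gnal, Gng13, Gnao1 and Ric8b reached 1 FPKM in 18.2%, 45.5%, 27.3% and 18.2% of Progenitor cells. They thus entered only through Mature Neurons, where they are higher, and Gnas, Gng8 and Gnai2 entered only through Progenitor cells. The counts of members and their ranks among all genes therefore only describe them. Gnal differed by 8.67, Gng13 by 8.60, Ric8b by 7.66, Gnb1 by 3.84 and Gnao1 by 3.17, and Gnai2 by -3.99, Gnas by -2.48 and Gng8 by -2.28. The median of all genes was -0.81. Of all genes compared, 99.8% had a difference no greater than that of Gnal and 99.7% no greater than that of Gng13. From Late Immature to Mature Neuron none of the members was higher past the rule, against 4.54% of 3835 genes. Scaling each cell to its FPKM sum outside the mitochondrial genome moved the median of all genes from -0.81 to -1.31 over the whole lineage and from -0.58 to -1.04 in the last step. With it the higher genes went from 35.3% to 23.4% of those past the rule over the whole lineage and from 12.2% to 1.77% in the last step. Under that scaling the last-step differences of Gnal, Gng13, Gnb1 and Ric8b turned negative, between -0.30 and -0.06. Without the cells with S100a8 or S100a9, the whole-lineage differences were 8.57 for Gnal, 7.70 for Gng13, 6.96 for Ric8b, 3.97 for Gnb1, 3.43 for Gnao1, -3.25 for Gnai2, -3.32 for Gng8 and -2.04 for Gnas.

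Within the 27 Early Immature Neurons the members were counted together, cell by cell. At 10 FPKM, Gng13 and Gnal were both present in 16 cells, Gng13 alone in 8, Gnal alone in 1 (D318) and neither in 2. At 1 FPKM the counts were 20, 4, 1 and 2. At 100 FPKM they were 8, 6, 1 and 12, so that at each of these levels more cells held Gng13 alone than Gnal alone. Ric8b and Gnal were both at 10 FPKM in 16 cells, Ric8b alone in 4 and Gnal alone in 1. At 100 FPKM both were present in 4 cells, Ric8b alone in 5, Gnal alone in 5 and neither in 13. At 10 FPKM, Gng8 and Gng13 were together in 17 cells, with Gng8 alone in 3 and Gng13 alone in 7. Gng13 and Omp were both present in 16 cells, Gng13 alone in 8 and Omp alone in 0. These are counts of cells at 1 moment, and they give no time course of any cell.

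The change of alpha subunit and the change of gamma subunit did not coincide in every cell. With Gm20721 counted as Gnas, 23 Early Immature Neurons had values for both shares. Both Gnal and Gng13 were over 50% in 10 of them, Gng13 alone in 6, Gnal alone in 3 and neither in 4. D200, with Gnal alone over 50%, had a Gng13 share of 43.6%, which moved by 34.0 percentage points in its repeat library. That repeat held 14.4 FPKM of Gng13 and 4.15 of Gng8, so that Gng13 was then the larger of the pair and the class of this cell is within measurement error. In all 7 Progenitor and 7 Precursor cells with both shares Gnal was under 50%, and Gng13 was over 50% in 4 and 3 of them. The 4 Progenitor cells were D172, D174, D330 and D393, with 138, 12.9, 11.7 and 23.1 FPKM of Gng13. Chtf18, which shares bases with Gng13, was at 3.74, 0.0502, 16.9 and 9.15 FPKM in them. The part of Chtf18 reads in these shares was not tested. All 13 Late Immature and 25 Mature Neurons had both over 50%. D318 held 59.8 FPKM of Gnal, 168.3 of Gng8 and 0.578 of Gng13, while D357 held 353 of Gnas with Gm20721, 7.34 of Gnal, 108 of Gng13 and 0 of Gng8. With the Gnas entry alone, 20 cells had both shares, and 14, 1, 4 and 1 fell into the same classes.

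Within the Early Immature Neurons, levels of Gnal, Gng13 and Ric8b went with Omp and those of Gng8 against it. Pearson r of log2 levels with Omp was 0.72 for Gnal, 0.68 for Gng13, 0.42 for Ric8b and -0.56 for Gng8 over 27 cells that share a stage label. Gnal correlated with Ric8b (r = 0.62) more than with Gng13 (r = 0.42), and Gng8 ran against Gnal (r = -0.49) and Gng13 (r = -0.48). Gnal had an r of -0.02 with the fragments behind 1 FPKM in these cells. In the 25 Mature Neurons Gnal went with the FPKM sum outside the mitochondrial genome (r = 0.69). A deposited table gives 64 cells a pseudotime score, a position along the lineage whose basis is not given in the sources used here and which may not be independent of these genes. Over these cells r was 0.80 for Gnal, 0.72 for Gnb1, 0.67 for Ric8b, 0.60 for Gng13, -0.75 for Gng8, -0.50 for Gnas, -0.35 for Gnao1 and -0.29 for Gnai2.

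Other genes of odorant signalling rose at the same steps. Of 14 odorant transduction genes other than the members, 10 of the 11 compared were higher past the rule from Precursor to Early Immature Neuron, 13 of 14 from Early to Late Immature Neuron, and 1 of 14, the phosphodiesterase Pde4a, from Late Immature to Mature Neuron. Over all genes the shares higher past the rule in these steps were 22%, 32.5% and 4.54%, so that the last count is near the background. The median differences of the list were 3.06, 3.51 and 0.34, against -0.26, 0.41 and -0.58 for all genes. Over the whole lineage all 13 compared were higher, against 25.2% of all genes. Genes silent in Progenitor cells enter this comparison only through Mature Neurons, where they are high. The list also holds Omp, the mature landmark, and was chosen with earlier results known. Its counts were therefore largely fixed in advance and only describe the list. The channel subunit Cnga2 was at medians of 0 FPKM in Progenitor and 665 in Mature Neuron cells and the cyclase Adcy3 at 0 and 89.9.

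The lists of all alpha, gamma and regulator genes, which include the members, were set beside the 25.2% of genes higher and 46.3% lower from Progenitor to Mature Neuron. Of the 16 alpha genes 8 could be compared, and 2 were higher (Gnal and Gnao1) and 5 lower, a share not far from the background. The lower ones that are not members were Gnai3 (-2.39), Gnaq (-2.29) and Gna13 (-1.40). Of 5 gamma genes compared, Gng13 was higher and Gng5 (-3.15), Gng10 (-2.80), Gng2 (-2.43) and Gng8 lower. Of 8 regulators compared, Ric8b was higher and 5 were lower, among them Gpsm2 (-3.24), a spindle orientation protein that binds alpha subunits, and Rgs12 (-3.09), a GTPase activating protein. The median differences were -1.85 for the alpha, -2.43 for the gamma and -2.16 for the regulator genes, against -0.81 for all genes. Of the lower genes, Gnai3, Gna13, Gng2 and Gng10 reached 1 FPKM in 12%, 24%, 4% and 28% of Mature Neurons. They thus entered only through Progenitor cells, where they are higher. The counts and medians of these lists therefore only describe them.

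The genes whose levels over the 85 cells were most like those of the members, by Pearson r of log2 levels, fell into a few groups. For Gnal they were Mppe1 (0.93), the ciliary protein gene Stoml3 (0.91) and Plekhb1 (0.90), and for Gng13 Stoml3 (0.90), Omp (0.89) and Nrn1l (0.85). For Ric8b they included Mppe1 (0.82) and Plekhb1 (0.81), and for Gnb1 the receptor transporter Rtp1 (0.83) and Clstn2 (0.81). For Gng8 they were the growth cone protein gene Dpysl3 (0.77), the tubulin gene Tubb2b (0.75) and the transcription factor gene Nhlh1 (0.70). Gnas went with Nnat (0.71), Cd24a (0.70) and the transcription factor gene Neurod1 (0.70), and Gnai2 with Ube2c (0.71), Zfp422 (0.68) and Smc4 (0.63), of which Ube2c and Smc4 act in mitosis. Gnao1 had the weakest likeness, with Cystm1 (0.56), Cadps (0.55) and Stmn3 (0.52). Stage differences and the depth of each library are shared by all of these values.

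Repeat libraries of 8 cells gave the error of a single value. The absolute difference of log2 levels had a median of 0.26 for Gnal and at most 2.06, in D200. For Gnb1 it was 0.56 and at most 1.03, and for Gng13 1.19 and at most 1.73. Medians were 0.93 for Gng8, 1.57 for Ric8b and 1.801 for Gnao1, but single cells differed by 5.77 (D251), 5.71 (D200) and 5.89 (D187), so that the level of these genes in 1 cell carries little weight. Gnas with Gm20721 differed by a median of 1.07 and by 5.43 in D251, from 0.221 to 51.8 FPKM. The share of Gnal with Gm20721 counted as Gnas moved by a median of 2.86 and at most 11.6 percentage points, and that of Gng13 by 3.56 and at most 34.0, in D200.

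**Figure D5:**
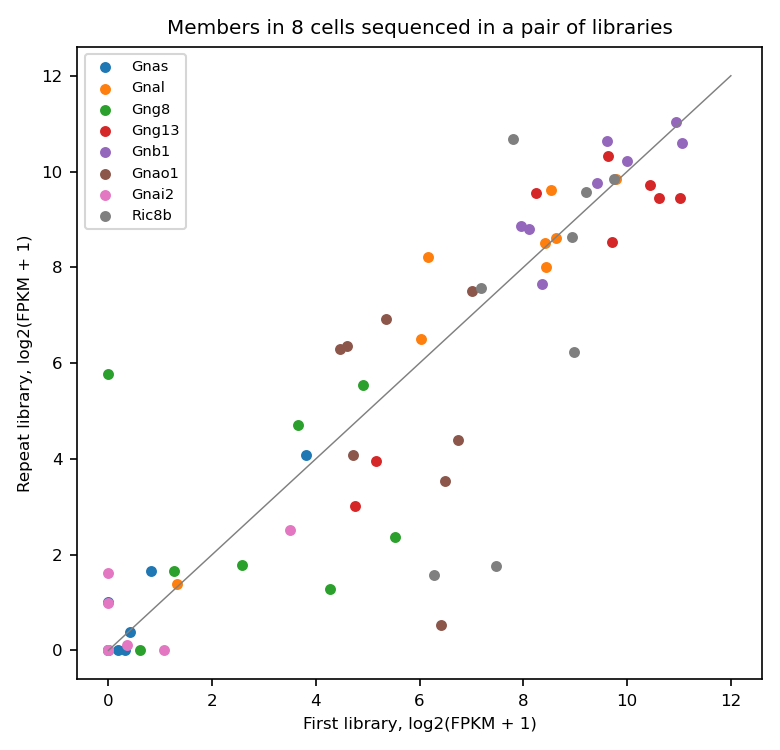
Level in the repeat library against the first library of the same cell, as log2(FPKM + 1), for the 8 genes in 8 cells; the line marks equal values. Gnal and Gnb1 lie near the line, while single cells of Gng8, Ric8b and Gnao1 lie 5.71 to 5.89 away.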

How the data were processed

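Single-cell cDNA was made with oligo(dT) priming and PCR and prepared with a TruSeq DNA kit, per the labels' protocols. Per the submitters' processing notes, the authors' tools were Cufflinks 2.2.1, TopHat2 2.0.14, Trim Galore with cutadapt 1.2.1, and CASAVA 1.8.2, on mm10, and no source used here gives their settings. Deposited by the authors were FPKM values per gene for 93 libraries and a pseudotime score for some cells. FPKM holds no counts, so an exact 0 can be a failed estimate, and the fragments behind 1 FPKM were estimated from the smallest steps of single-exon genes.

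First libraries of 85 cells were analysed in Python 3.11.15 with pandas 2.3.3 and numpy 2.4.6. A gene entered a comparison when it reached 1 FPKM in 50% or more of the cells in one of the compared stages. The pseudocount was 1, and a difference of 1 (log2) stood in for a test. The difference script was tested on simulated data. Members, lists and marker genes were chosen with earlier results of these data known. Named genes were the members, Omp, Gap43, Ric8a, members of the lists past the rule and, for each member, the 3 genes of highest correlation among those at 1 FPKM in 20 or more cells, without receptor, unnamed, ribosomal and mitochondrial genes. Of the genes so chosen, 1 is not reported here. Gm20721, Chtf18, Mppe1, Gnb2, Gng10 and single cells were singled out after their values were seen. Alternatives were other pseudocounts, scaling, minimum levels, repeat libraries, ranges of cell numbers, leaving out cells with genes of other types and leaving out each cell in turn. Promoter sequences were from RefSeq, which had entries for 6 of the 8 genes. No p-value was computed.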

Additional observations from a re-analysis of the deposited data

Results flagged for a closer look

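In groups of 4 to 10 values, a value was singled out when its gap to the nearest other value was large against the range of the group (Dixon's 95% critical values). Of 16 groups examined 2 held such a value, and chance gives about 1 in 20. Ric8b was at a log2(FPKM + 1) of 6.95 in Precursor cell D179, with a gap of 0.598 of the range against a critical value of 0.493 for 9 cells. D179 also held S100a8 at 156 FPKM and S100a9 at 174.1 FPKM, and the part of other cells' RNA in its Ric8b level was not tested. Gng8 in the repeat library of Mature Neuron D251 was higher by 5.77 (log2) than in its first library, with a gap of 0.528 of the range against 0.526 for 8 cells. The same repeat library held 51.8 FPKM of Gnas with Gm20721 against 0.221 in the first library, and the cause was not tested.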

How the results depend on the processing

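Leaving out single cells kept the direction and the side of the rule of size for all 8 differences from Progenitor to Mature Neuron. Gnas ranged from -2.70 to -2.21, Gnal from 8.58 to 9.12, Gng8 from -2.51 to -1.91, Gng13 from 8.41 to 9.12, Gnb1 from 3.67 to 3.97, Gnao1 from 3.01 to 3.56, Gnai2 from -4.25 to -3.78 and Ric8b from 7.54 to 8.01. A pseudocount of 0.1 gave -4.86 for Gnas, 10.92 for Gnal, -4.18 for Gng8, 10.50 for Gng13, -7.05 for Gnai2 and 9.58 for Ric8b. A pseudocount of 10 gave 5.88 for Gnal, 6.40 for Gng13, -1.48 for Gnai2 and 5.12 for Ric8b, and it took Gnas (-0.76) and Gng8 (-0.88) below the rule, since it compresses low values. Adding Gm20721 to Gnas, an alternative chosen after seeing the data, gave -7.41 for Gnas and median Gnal shares of 1.53% in Precursor, 67.1% in Early Immature, 99.9% in Late Immature and 99.9% in Mature cells. The Precursor median of the Gnal share, 46.2% with the Gnas entry alone, was 67.3% without cells with genes of other types and 54.6% without cells with S100a8 or S100a9, the latter also chosen after seeing the data. Leaving out single cells moved it between 37.8% and 54.6%, and moved the Progenitor median of the Gng13 share between 32.0% and 61.2%. Of Precursor cells only 1 had a Gng8 and Gng13 sum of 100 FPKM or more, and its Gng13 share was 88.8%. Without the filter on low values more genes were past the rule. Higher and lower genes then numbered 1383 and 1592 from Progenitor to Precursor (870 and 934 with it), 1653 and 1742 in the next step (883 and 1122), 1802 and 1107 from Early to Late Immature Neuron (1347 and 665), and 1862 and 3166 over the whole lineage (1127 and 2069). In the last step they were 2.11% and 11.5% of 16289 genes, against 4.54% and 32.7% of 3835 with it. No paired analysis was possible because no test was made between stages and the cells carry no shared replicate numbers. Depth limits values near 1 FPKM, and absence of Gng8 or Gnai2 at lower levels was not detectable.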
